A study of Mus musculus with 19 samples.

Results

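Neurogenesis in embryonic cortex passes through intermediate progenitors (IPs), and 10 genes that mark IPs or the step that makes them were followed in *Ino80* mutant neocortex. The genes were *Neurog1*, *Neurog2*, *Neurod4*, *Insm1*, *Eomes*, *Mfng*, *Gadd45g*, *Btg2*, *Elavl4* and *Rhbdl3*. The first 9 were named as markers of IPs and of neurogenic commitment, and *Rhbdl3* was chosen from its low level in cKO-E against ctrl in these same embryos. Values of the 10 genes in that comparison are therefore a description, given with no p-value, and a count of calls there is set beside the share of all genes but not read. The same holds for *Rhbdl3* in dKO-E against cKO-E, which uses the same cKO-E embryos. *Rhbdl3* in dKO-E against ctrl uses the same ctrl embryos, so its p-value there is not independent of the choice. The p-values of the other 9 genes in dKO-E carry the same limit, since the cKO-E against ctrl values were known. All 10 of the 10 genes were found among the 51912 gene identifiers of each library, and all 10 had enough counts to be tested in the 3 comparisons.

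The data were Click-seq RNA libraries of E13.5 neocortex, each made from a single embryo (ctrl, n = 7; cKO-E, n = 5; dKO-E, n = 7) on a background mixed from C57BL/6 and 129. In cKO-E (*Emx1*-Cre with conditional *Ino80* alleles) the catalytic subunit of the INO80 chromatin remodeler is deleted, and in dKO-E (*Emx1*-Cre with conditional *Ino80* and *Trp53* alleles) p53 is deleted as well. The ctrl genotype is labelled only as control. *Emx1*-Cre acts in dorsal forebrain progenitors and is inherited by their excitatory neurons, so that interneurons, microglia and vessels in the same dissected tissue keep both genes. The cKO-E embryos came from litters 3, 4, 5, 6 and 7, the dKO-E embryos from litters 1 and 2, and the ctrl embryos from litters 1, 4, 5 and 7, so that no litter held both mutants. Labelled male were ctrl B, D and I, cKO-E C, and dKO-E C, D, E, F and G, and the rest were female. Sex was thus not balanced between the mutants.

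Apical progenitors line the ventricle and keep each other undifferentiated by Notch signalling. A daughter cell that accumulates proneural factors such as NEUROG2 raises Notch ligands, leaves the ventricular surface, turns on *Insm1* and *Eomes* and becomes an IP, which divides away from the ventricle to give excitatory neurons. In dissected tissue, fewer IPs and less RNA per IP cannot be told apart.

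The libraries held 820915 to 8095810 counts on genes (median 2952788), and 3 of them, cKO-E D, dKO-E E and dKO-E G, held under 1200000. The counts are sums over whole gene spans and do not check the removal of single exons: *Ino80* read 111 to 129 CPM (counts relative to the scaled total of the library) in ctrl, 139 to 182 in cKO-E and 155 to 197 in dKO-E, and *Trp53* read 35.7 to 50.4, 34.3 to 44.4 and 27.4 to 41.6 CPM. Of the markers of the dissected tissue, *Pax6* (179 to 253 CPM in ctrl) and *Emx1* (99.3 to 125 CPM in ctrl) were present, while *Sox1*, *Sox2*, *Tubb3* and *Neurod1* were listed at 0 in every library. These 4 genes overlap the span of another gene on the same strand, and of 202 protein-coding genes that lie inside such a span without a shared exonic base, 98% were at 0 in every library, against 30% of 473 inside a gene on the other strand and 28.3% of 11675 with no overlapping gene. Counting thus appears to have covered introns and used strand, and these zeros say nothing of expression. At a false discovery rate (FDR) of 0.001, 124 genes were higher and 270 lower in cKO-E than in ctrl, of 11660 tested. For dKO-E against ctrl, 28 were higher and 266 lower, of 11381.

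Most of the 10 genes lay below ctrl in cKO-E. The log2 fold change was negative for 9 of 10, with a median of -0.32, where 46.6% of all 11660 genes tested were below 0 and their median was 0.02. The exception was *Neurod4*. Only *Rhbdl3* passed the FDR of 0.001, which 2.32% of all genes passed as lower and 3.38% in either direction, and only *Rhbdl3* had every cKO-E embryo below every ctrl embryo, as did 5.49% of all genes. Nothing is read from these counts, since the genes were chosen with this comparison known.

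In dKO-E, the log2 fold change against ctrl was negative for 8 of 10, with a median of -0.10 against 0.01 over all genes, and when libraries were scaled by total counts instead of TMM factors, it was negative for 6 of 10 with a median of 0.00. *Rhbdl3* alone passed the FDR of 0.001 (2.34% of all genes as lower, 2.58% in either direction) and alone did not overlap with ctrl (3.08% of all genes all lower). *Rhbdl3* and *Elavl4* passed an FDR of 0.05, as did 10% of all genes as lower. Against cKO-E, 8 of 10 genes were above 0 in dKO-E with a median of 0.18, and none of the other 9 genes passed the FDR of 0.05 (5.59% of all genes as higher, 15.0% in either direction) or was free of overlap (2.26% of all genes all higher). *Rhbdl3*, the gene chosen by its cKO-E level, met both, from which nothing is read. The 3 comparisons share embryos: both mutants were set against the same 7 ctrl embryos, and the third comparison uses the cKO-E embryos again. The calls and p-values in dKO-E are therefore not independent of the choice of genes.

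**Figure D1:**
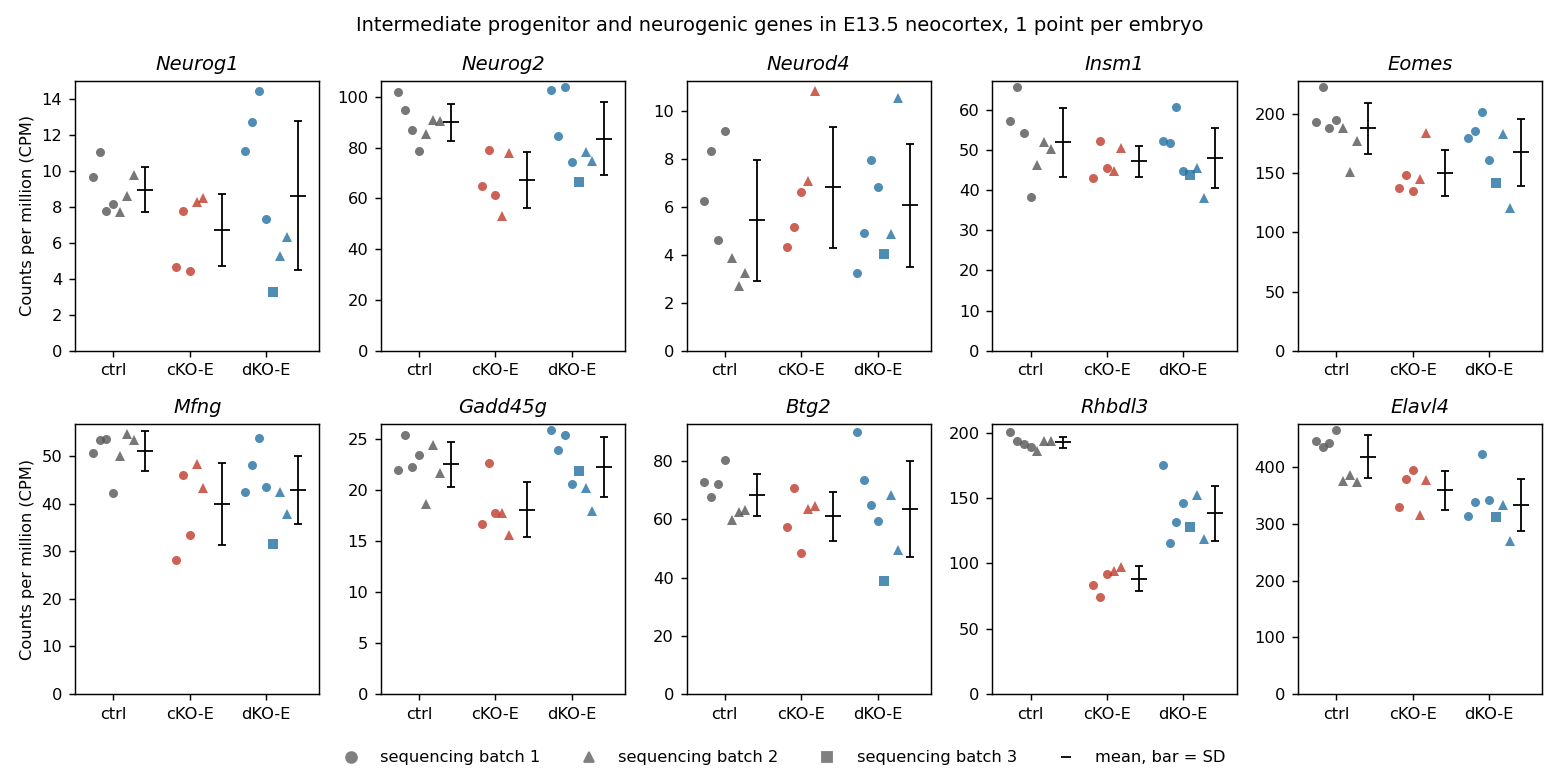
CPM of the 10 genes in each of the 19 embryos, 1 point per embryo, with ctrl in grey, cKO-E in red and dKO-E in blue, marker shapes for the sequencing batch, and the mean with its SD beside each group on an axis that starts at 0. *Rhbdl3* has no overlap between any 2 groups (74.0 to 97.6 CPM in cKO-E, 116 to 175 in dKO-E, 186 to 200.4 in ctrl), and for each of the other genes cKO-E overlaps with ctrl.

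Before the values, 3 promoters are shown, for the IP factor *Eomes*, the proneural factor *Neurog2* and the cell-cycle gene *Gadd45g*, because proneural factors are known to bind E-boxes and these were the 3 promoters at hand with TATAA, a choice made with the matches known. Each run covers 200 bases, from 210 to 11 bases before the RefSeq start on GRCm38.p6, and contains no annotated exon. Capitals mark the E-box CANNTG and the letters TATAA, searched on both strands.
Eomes, chr9:118477979-118478178, plus strand: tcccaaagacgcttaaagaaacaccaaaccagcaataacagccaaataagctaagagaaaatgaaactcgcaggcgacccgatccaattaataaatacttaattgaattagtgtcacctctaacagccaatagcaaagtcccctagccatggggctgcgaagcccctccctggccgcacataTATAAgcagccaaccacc
Neurog2, chr3:127632926-127633125, plus strand: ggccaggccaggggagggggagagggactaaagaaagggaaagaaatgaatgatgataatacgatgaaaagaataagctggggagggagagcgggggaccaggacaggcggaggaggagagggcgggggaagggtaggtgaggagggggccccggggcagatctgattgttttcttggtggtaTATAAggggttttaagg
Gadd45g, chr13:51846465-51846664, plus strand: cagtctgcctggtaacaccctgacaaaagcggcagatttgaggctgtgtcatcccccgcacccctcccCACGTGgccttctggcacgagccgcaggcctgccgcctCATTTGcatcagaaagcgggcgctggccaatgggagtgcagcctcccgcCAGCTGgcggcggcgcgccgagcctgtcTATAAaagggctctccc
*Gadd45g* held 3 E-boxes and the other promoters none in this window. RefSeq promoters were at hand for 7 of the 10 genes (not for *Insm1*, *Mfng* and *Rhbdl3*), of which 2 held an E-box in a window (*Gadd45g*, and *Elavl4* in 3 of its 4 windows, not printed) and 3 held TATAA, while 58.6% of all 32851 windows of the same length held an E-box and 18.9% held TATAA.

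Since counts appear to take in introns, levels are compared only among the 5 genes whose span is at most 1.53 times their exon length. In ctrl, *Neurog2* was highest at 40.4 ± 3.32 CPM per kb of exon (SD, n = 7), followed by *Btg2* at 24.9 ± 2.64. *Gadd45g* at 19.2 ± 1.87 and *Insm1* at 16.8 ± 2.78 CPM per kb lay within their spread of each other, and *Neurog1* was lowest at 5.31 ± 0.728. *Neurog1* and *Neurod4* had only 4 to 114 and 5 to 63 counts per library, and in dKO-E the mean counting error alone was 28.9% of the level for *Neurog1* and 29.5% for *Neurod4*. In ctrl the coefficient of variation of *Rhbdl3* CPM was 2.32%, below the 4.51% that counting alone gives on average, while that of *Eomes* was 11.4% against 4.63% from counting.

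*Rhbdl3* (ENSMUSG00000017692.8, chromosome 11 of GRCm38 from 80300912 to 80355955) encodes a rhomboid family protease of the nervous system. The 7 ctrl embryos read between 186 and 200.4 CPM with a median of 194, and the 5 cKO-E embryos read 83.2, 74.0, 92.1, 94.4 and 97.6 CPM (A to E). The 7 dKO-E embryos read between 116 and 175 CPM with a median of 132. The groups were fully separated, with dKO-E between cKO-E and ctrl.

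As mean ± SD, *Rhbdl3* stood at 193 ± 4.47 CPM over the 7 ctrl embryos, at 88.2 ± 9.59 over the 5 cKO-E embryos and at 138.5 ± 21.1 over the 7 dKO-E embryos. The cKO-E against ctrl difference by which it was chosen was a log2 fold change of -1.14 (SE 0.07), or -1.23 in sequencing batch 1 (3 cKO-E and 4 ctrl embryos) and -0.99 in batch 2 (2 and 3 embryos). *Rhbdl3* fell by 0.48 on the log2 scale in dKO-E against ctrl (SE 0.08, adjusted p = 0.000288 by quasi-likelihood in edgeR, lower in 7 of 7 dKO-E embryos). The ctrl embryos here are those by which the gene was chosen, so this p is not independent of the choice. Their coefficient of variation was 2.32%, where counting alone gives 4.51% on average. The adjusted p ranged from 5.83e-07 to 0.0369 over 30 alternatives, in all of which the value stayed negative. The call at 0.001 ended with litter as a covariate (0.0369), in batch 2 alone (0.0288), with dKO-E litter 1 alone (0.0164), with the letter of the label as a replicate block (0.0145), in batch 1 alone (0.0143), without the 3 shallow libraries (0.00343) and with total counts (0.00243). It also ended, by a small margin, without dKO-E C, without dKO-E E (0.00114) or without dKO-E G (0.00105). The value of dKO-E against cKO-E, a description since it uses the cKO-E embryos by which the gene was chosen, was 0.67 on the log2 scale (SE 0.11). Within litters, the ratio of mutant to ctrl was -1.37, -1.03 and -0.99 on the log2 scale for the single cKO-E embryos of litters 4, 5 and 7. Within litter 1 it was -0.49 for 3 dKO-E against 2 ctrl embryos. In each of these litters and batches the mutant embryos lay below ctrl for *Rhbdl3*.

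Among 7378 other genes with a mean of at least 20 CPM, the patterns over the 19 embryos nearest to that of *Rhbdl3* belonged to *Dok5*, *Peli2* and *Ccdc136*, which differed from it by 0.23, 0.23 and 0.24 on the log2 scale (root mean square). *Dok5*, a docking protein of receptor tyrosine kinases, read 115 ± 12.3 CPM in ctrl, 59.2 ± 13.9 in cKO-E and 88.8 ± 20.7 in dKO-E. *Peli2*, an E3 ubiquitin ligase gene, read 194 ± 12.3, 104 ± 15.4 and 142 ± 14.4 CPM. *Ccdc136* read 141 ± 15.9, 82.2 ± 7.75 and 111 ± 10.3 CPM. These genes were picked for their likeness, and their values are a description.

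*Neurog2* (ENSMUSG00000027967.8, chromosome 3 from 127633135 to 127635631) encodes the main proneural factor of dorsal cortex. It read between 78.7 and 102 CPM with a median of 90.3 in ctrl, and 64.9, 78.8, 61.1, 53.1 and 77.9 CPM in cKO-E A to E. In dKO-E it read between 66.4 and 104 CPM with a median of 78.1. The highest cKO-E embryo (78.8 CPM) and the lowest ctrl embryo (78.7 CPM) just touched, and dKO-E overlapped with both groups.

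For *Neurog2*, the log2 fold change of cKO-E against ctrl was -0.39 (SE 0.09), with -0.41 in sequencing batch 1 and -0.36 in batch 2, and the value was negative in all 3 litters that held both groups (-0.14, -0.42 and -0.22). For dKO-E the value was -0.10 against ctrl (SE 0.09, adjusted p = 0.518 from edgeR) and 0.30 against cKO-E (SE 0.11, adjusted p = 0.0775). The latter passed an FDR of 0.05 only with total-count scaling (adjusted p = 0.0288), with sex as a covariate (0.0199), with all genes of at least 1 count (0.0171) and for the litter 1 dKO-E embryos alone (0.0165), within a range of 0.0165 to 0.863 over 27 alternatives. The cKO-E embryos are those whose values were known when the genes were chosen. These p-values are therefore not independent of the choice, and nothing is read from those that pass.

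*Neurog1* (chromosome 13 from 56250478 to 56252163), which overlaps in function with *Neurog2*, read 7.71 to 11.01 CPM in ctrl, 4.42 to 8.47 in cKO-E and 3.24 to 14.4 in dKO-E. The log2 fold changes were -0.46 (SE 0.20) for cKO-E against ctrl, 0.08 (SE 0.22, adjusted p = 0.859) for dKO-E against ctrl and 0.57 (SE 0.29, adjusted p = 0.222) for dKO-E against cKO-E. The value against ctrl turned to -0.13 without dKO-E C and to -0.01 without dKO-E B, and that against cKO-E became 0.35 without dKO-E C. Within batches 1 and 2, *Neurog1* stood at 0.32 and -0.66 against ctrl and at 1.02 and -0.61 against cKO-E, so its sign in dKO-E was not stable. The lowest value rested on 4 counts in dKO-E E, with a 95% exact Poisson interval of 0.883 to 8.30 CPM for counting error alone. *Neurod4* (chromosome 10 from 130268152 to 130280240), a bHLH factor downstream of the proneural genes, read 2.71 to 9.15 CPM in ctrl, 4.33 to 10.8 in cKO-E and 3.24 to 10.5 in dKO-E, and all groups overlapped. The log2 fold changes of dKO-E were 0.04 against ctrl (SE 0.26, adjusted p = 0.942) and -0.15 against cKO-E (SE 0.27, adjusted p = 0.783). That of cKO-E against ctrl, 0.22 (SE 0.30), became -0.06 without cKO-E E, the embryo at 10.8 CPM, and ran from -0.41 in sequencing batch 1 to 1.56 in batch 2.

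*Eomes* (ENSMUSG00000032446.14, chromosome 9 from 118478212 to 118486132) encodes TBR2, the T-box factor that defines cortical IPs. It shares 118 exonic bases with *Gm33460* on the other strand. *Eomes* read between 151 and 223 CPM with a median of 188 in ctrl, and 138, 149, 135, 145 and 184 CPM in cKO-E A to E. In dKO-E it read between 120.2 and 202 CPM with a median of 179. In cKO-E, 4 of 5 embryos lay below every ctrl embryo, and E lay within the ctrl range.

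The log2 fold change of *Eomes* in cKO-E against ctrl was -0.32 (SE 0.09). It was -0.51 in sequencing batch 1 and -0.03 in sequencing batch 2, the batch of cKO-E D and E, and the batches held 7 and 5 embryos of the 2 groups. In litter 7, cKO-E E at 184 CPM stood above its ctrl littermates at 164 on average, while in litters 4 and 5 the cKO-E embryos were below theirs (-0.34 and -0.51 on the log2 scale). The same cKO-E E library, also the highest cKO-E library for *Neurod4*, held the highest summed level of 6 hem and choroid plexus markers, at 113 CPM. The sums were 7.17 to 12.3 CPM in the other cKO-E embryos, 2.09 to 7.80 in ctrl and 2.28 to 19.0 in dKO-E. The part of such tissue in the *Eomes* value was not tested. Without cKO-E E the log2 fold change was -0.41. In dKO-E, *Eomes* stood at -0.15 against ctrl (SE 0.09, adjusted p = 0.255) and at 0.18 against cKO-E (SE 0.10, adjusted p = 0.261).

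*Insm1* (chromosome 2 from 146221921 to 146225020), a zinc-finger factor that promotes the formation of IPs, was among the flattest. Its values were 38.3 to 65.8 CPM in ctrl, 42.9 to 52.2 in cKO-E and 38.0 to 60.8 in dKO-E, so that the cKO-E values fell inside the ctrl range. The log2 fold changes were -0.15 (SE 0.11) in cKO-E against ctrl, -0.10 (SE 0.11, adjusted p = 0.590) in dKO-E against ctrl and 0.06 (SE 0.10, adjusted p = 0.784) in dKO-E against cKO-E. The patterns nearest to that of *Eomes* belonged to *Tcf4*, *Fsd1l* and *Ddah1*, each 0.14 apart on the log2 scale. *Tcf4*, an E-protein that pairs with proneural factors, read 3286 ± 194 CPM in ctrl, 2724 ± 246 in cKO-E and 2890 ± 298 in dKO-E.

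*Mfng* (chromosome 15 from 78755882 to 78773475) encodes manic fringe, a glycosyltransferase that modifies Notch receptors. It read 42.4 to 54.7 CPM with a median of 53.4 in ctrl, and 28.3, 46.2, 33.5, 48.4 and 43.4 CPM in cKO-E A to E. In dKO-E it read 31.6 to 54.0 CPM with a median of 42.6. Below every ctrl embryo lay 2 of 5 cKO-E and 2 of 7 dKO-E embryos. Below the ctrl embryo next to ctrl D, the lowest, lay 5 of 5 cKO-E and 6 of 7 dKO-E embryos (50.1 CPM). That rule was set after the values were seen, and 5 of 5 cKO-E embryos met it for *Neurog2* too. Nothing is read from it. The log2 fold changes of *Mfng* were -0.39 (SE 0.12) in cKO-E and -0.21 (SE 0.09, adjusted p = 0.122) in dKO-E against ctrl, and 0.18 (SE 0.13, adjusted p = 0.412) in dKO-E against cKO-E. *Mfng* was lower in the cKO-E embryo of each of litters 4, 5 and 7 than in its ctrl littermates (-0.22, -0.46 and -0.32).

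*Gadd45g* (chromosome 13 from 51846678 to 51848468) and *Btg2* (chromosome 1 from 134075170 to 134079120) are expressed as progenitors leave the cell cycle, and *Btg2* is also a textbook target of p53. *Gadd45g* read 18.6 to 25.3 CPM in ctrl, 16.6, 22.7, 17.7, 17.7 and 15.6 in cKO-E A to E, and 17.9 to 25.9 in dKO-E. In cKO-E, 4 of 5 embryos were below every ctrl embryo and B was inside the ctrl range. Its log2 fold changes were -0.32 (SE 0.11) in cKO-E and -0.01 (SE 0.10, adjusted p = 0.998) in dKO-E against ctrl, and 0.32 (SE 0.13, adjusted p = 0.106) in dKO-E against cKO-E.

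*Btg2* read 59.7 to 80.4 CPM in ctrl, 48.6 to 70.8 in cKO-E and 38.9 to 90.2 in dKO-E. On the log2 scale it differed by -0.17 (SE 0.09) in cKO-E, -0.08 (SE 0.11, adjusted p = 0.680) in dKO-E against ctrl and 0.10 (SE 0.14, adjusted p = 0.712) in dKO-E against cKO-E. Without cKO-E C the cKO-E value of *Btg2* was -0.09, and in batch 2 alone it was 0.05. Of 10 other p53 targets, 9 rose in cKO-E at the FDR of 0.001, which 3.38% of all genes passed in either direction. The same 9 fell from cKO-E to dKO-E at the FDR of 0.05, which 15.0% of all genes passed in either direction. The list was chosen with earlier results of these data known, and the study reported *Ano3* and *Eda2r* as raised in cKO-E. These values are therefore a description. Over the 10 targets the median in cKO-E was 2.44 on the log2 scale, with *Cdkn1a* at 3.63 (SE 0.36, adjusted p = 4.33e-06) and *Aen* at 1.21 (SE 0.07, adjusted p = 1.93e-08), and *Ccng1*, *Eda2r*, *Ano3*, *Bbc3*, *Pmaip1*, *Phlda3* and *Zmat3* were the other calls. *Mdm2* at 0.15 was the exception, named after its value was seen.

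*Elavl4* (ENSMUSG00000028546.17, chromosome 4 from 110203722 to 110351909) encodes HuD, an RNA-binding protein of newborn and mature neurons. It read between 374 and 466 CPM with a median of 436 in ctrl, and 330.3, 379, 395, 316 and 377 CPM in cKO-E A to E. In dKO-E it read between 269.9 and 423 CPM with a median of 333. All dKO-E embryos but C lay below every ctrl embryo.

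The mean of *Elavl4* was lower in dKO-E (333 ± 46.5 CPM, SD, n = 7) than in cKO-E (359 ± 34.1, n = 5) and ctrl (418 ± 37.9, n = 7). The log2 fold change of dKO-E against ctrl was -0.33 (SE 0.07, adjusted p = 0.00421, past the FDR of 0.05 but not of 0.001), with -0.34 in each of sequencing batches 1 and 2. Its adjusted p ranged from 0.000437 (without dKO-E C) to 0.142 over 30 alternatives, and exceeded 0.05 in batch 2 alone (0.0798), for dKO-E litter 1 alone (0.135) and with litter as a covariate (0.142). Against cKO-E, dKO-E stood at -0.11 (SE 0.08, adjusted p = 0.434), and cKO-E stood at -0.21 (SE 0.07) against ctrl. Within ctrl, the 3 embryos of batch 2 (374 to 387 CPM) were below the 4 embryos of batch 1 (436 to 466 CPM).

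**Figure D2:**
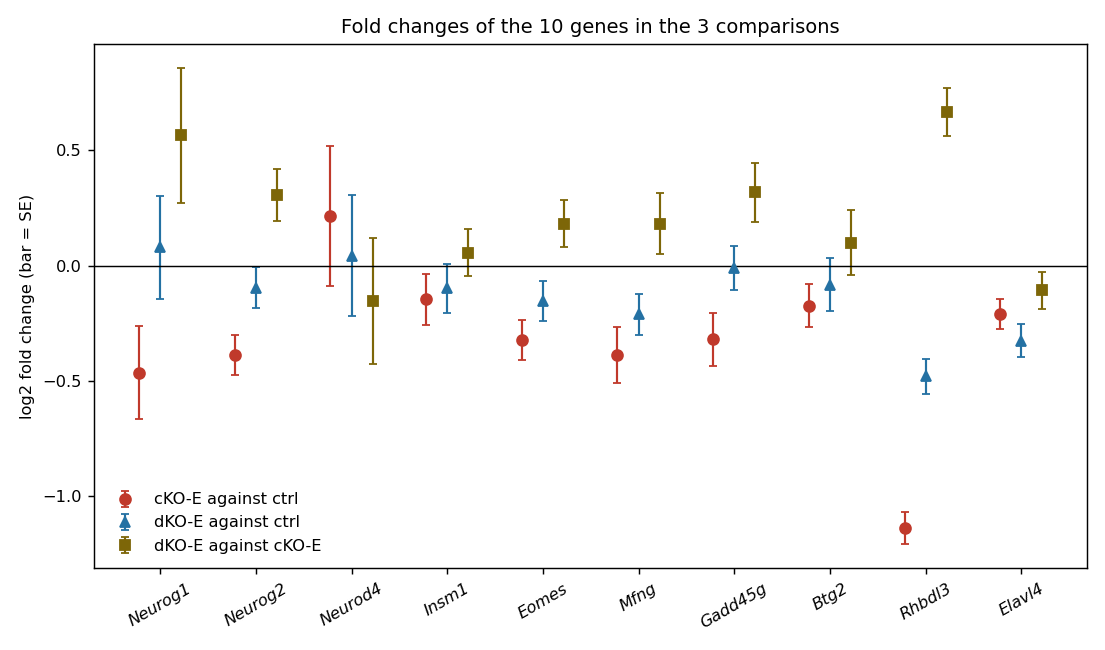
Log2 fold changes of the 10 genes with their SE from edgeR, for cKO-E against ctrl (red circles), dKO-E against ctrl (blue triangles) and dKO-E against cKO-E (brown squares). *Rhbdl3* stands apart at -1.14, -0.48 and 0.67, *Elavl4* is negative in all 3 comparisons, and the bars of *Neurog1* and *Neurod4* are the widest.

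Sequencing batch moved with these values. In batch 1, all 10 genes were below 0 in cKO-E against ctrl with a median of -0.41, and in batch 2, 8 of 10 were, with a median of -0.09. For dKO-E against cKO-E the median was 0.35 in batch 1, where 9 of 10 genes were above 0, and -0.14 in batch 2 (2 embryos of each group), where 7 of 10 were below 0. In this comparison 4 genes had the sign of the pooled value in both batches: *Rhbdl3* (0.77 and 0.52), *Neurog2* (0.41 and 0.12), *Gadd45g* (0.32 and 0.24) and *Elavl4* (-0.05 and -0.22).

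Litter also separated the dKO-E embryos, a pattern picked out after the values were seen. *Neurog1* read 11.1, 12.7 and 14.4 CPM in the litter 1 embryos A, B and C, and 3.24 to 7.30 CPM in the 4 embryos of litter 2. *Neurog2* read 84.4 to 104 CPM in litter 1 and 66.4 to 78.1 in litter 2. *Insm1* (51.7 to 60.8 and 38.0 to 45.6 CPM) and *Gadd45g* (23.9 to 25.9 and 17.9 to 21.9 CPM) did not overlap either.

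Thus 4 of the 10 genes were higher in every litter 1 than in every litter 2 dKO-E embryo, as were 6.48% of the 11381 genes tested, and *Rhbdl3* did not follow (116 to 175 and 119 to 153 CPM). Per embryo, the median log2 ratio of the 10 genes to the ctrl mean was -0.03, -0.05 and 0.14 in litter 1 and -0.23, -0.43, -0.20 and -0.46 in litter 2. All embryos of litter 2 were male and held both shallow dKO-E libraries and the only embryo of sequencing batch 3, while all of litter 1 was in batch 1 with 1 male, so that litter, sex and batch cannot be told apart here. Within batch 1, D, its only litter 2 embryo, was below A, B and C for *Neurog1*, *Neurog2*, *Insm1* and *Gadd45g*. This follows from how these 4 genes were picked, so nothing is read from it. The 2 ctrl embryos of litter 1 had medians of 0.09 and 0.12, the highest among ctrl.

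**Figure D3:**
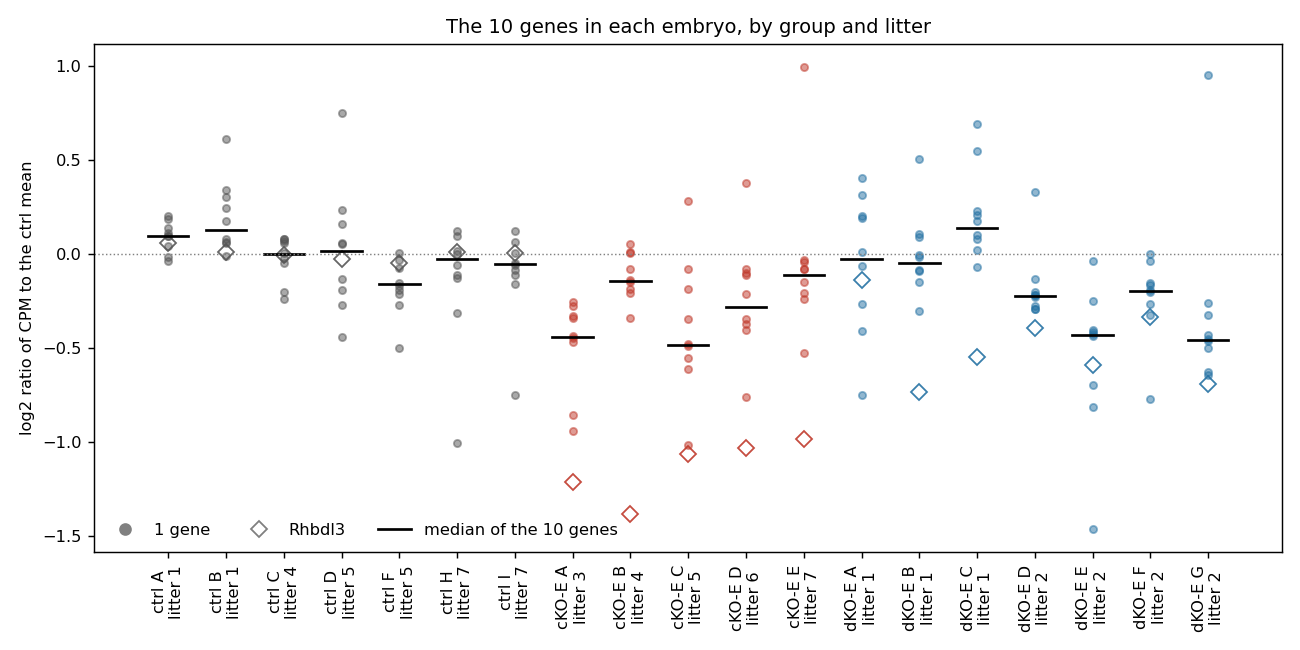
Log2 ratio of CPM to the ctrl mean for each of the 10 genes in each of the 19 embryos, ordered by group and litter, with *Rhbdl3* as an open diamond and the median of the 10 genes as a black bar. The 5 cKO-E medians lie between -0.49 and -0.11, and within dKO-E the 3 litter 1 medians (-0.05 to 0.14) lie above the 4 litter 2 medians (-0.46 to -0.20).

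Beyond the 10 genes, 41 other neurogenic genes were followed in 3 lists of proneural factors with their partners, IP and newborn neuron genes, and Notch pathway genes, of which 40 were tested in each comparison. These lists, and the lists below, were chosen with earlier results of these data known. Their counts of calls and p-values are therefore a description. In cKO-E, 2 were lower and 0 higher at the FDR of 0.001, 29 of 40 were below 0 and the median was -0.21. The 2 were *Cux1*, a homeobox gene of upper-layer neurons and their progenitors (-0.58, SE 0.07, adjusted p = 1.85e-05 from edgeR), and *Numb*, an inhibitor of Notch (-0.33, SE 0.05, adjusted p = 0.000534). The 2 were 5% of the 40, beside 3.38% of all genes. At an unadjusted p under 0.05 there were 24 (60%, beside 29.8% of all genes), and DESeq2 called 6, all lower, while it called 6.16% of all genes.

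In the Notch list, 12 of 14 genes were below 0 in cKO-E and the median was -0.33. *Notch1* (-0.41, SE 0.08, adjusted p = 0.00209) and *Notch2* (-0.33, SE 0.06, adjusted p = 0.00171), receptors of apical progenitors, did not pass 0.001. Every cKO-E embryo was below every ctrl embryo for both, as for 5.49% of all genes. From cKO-E to dKO-E, 12 of 14 were above 0 with a median of 0.33. There *Notch1* (0.42, adjusted p = 0.000981), *Notch2* (0.34, 0.00467), *Notch3* (0.44, 0.00134), the effector *Hey1* (0.89, 0.00449) and the DNA-binding partner *Rbpj* (0.20, 0.0181) rose, and the ligand *Jag1* fell by 0.75 (0.000738). These calls were 42.9% of the list, beside 15.0% of all genes in either direction. Against ctrl, dKO-E had 1 call in the list, *Rbpj* at 0.38 (SE 0.05, adjusted p = 6.59e-05), or 7.14% beside 2.58% of all genes.

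Of the proneural factors and partners, none of 9 tested was called in cKO-E by the quasi-likelihood test at 0.001. At an unadjusted p under 0.05 there were 6 (66.7%), beside 29.8% of all genes. *Tcf4* was at -0.26 (SE 0.06, adjusted p = 0.00484) and *Tcf12* at -0.24 (SE 0.05, adjusted p = 0.00384). *Tcf12*, like *Tcf4* an E-protein, fell by 0.32 in dKO-E against ctrl (SE 0.05, adjusted p = 0.000156). From cKO-E to dKO-E the E-protein gene *Tcf3* rose by 0.33 (adjusted p = 0.00869) and *Nhlh2*, a bHLH factor of young neurons, fell by 0.63 (adjusted p = 0.0268). Calls were 11.1% of those tested in dKO-E against ctrl and 22.2% between the mutants, beside 2.58% and 15.0% of all genes.

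In the list of IP and newborn neuron genes, 17 were tested and the median was -0.06 in cKO-E, -0.18 in dKO-E against ctrl and -0.01 in dKO-E against cKO-E. *Cux1* fell by 0.36 in dKO-E against ctrl (SE 0.06, adjusted p = 0.000337) and rose by 0.23 from cKO-E to dKO-E (adjusted p = 0.0169), where *Cbfa2t3*, a transcriptional corepressor gene, fell by 0.52 (adjusted p = 0.0153). Calls were 5.88% of the list in dKO-E against ctrl and 11.8% between the mutants, beside 2.58% and 15.0% of all genes. The abundant *Sox11* (0.07 in cKO-E, adjusted p = 0.673) and *Elavl2* (-0.06, adjusted p = 0.570) were not called, nor was the netrin receptor gene *Unc5d* (-0.45, adjusted p = 0.0293).

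Cells before and after the IP stage were checked with 2 further lists. Of 12 apical progenitor genes tested in cKO-E, 10 were below 0 with a median of -0.37. *Lhx2*, a selector of cortical identity, fell by 0.66 (SE 0.09, adjusted p = 7.51e-05), *Prom1* fell by 0.64 (SE 0.10, adjusted p = 0.000278) and *Fabp7*, a radial glial lipid-binding protein gene, rose by 0.56 (SE 0.08, adjusted p = 0.000182). These calls were 25% of the 12, beside 3.38% of all genes. Of 13 projection neuron genes, none was called by edgeR in cKO-E at 0.001 and the median was 0.07. At an unadjusted p under 0.05 there were 5 (38.5%), beside 29.8% of all genes. From cKO-E to dKO-E 6 projection neuron genes fell, *Tbr1* by 0.48 (adjusted p = 0.00131), *Mapt* by 0.92 (adjusted p = 2.01e-05), *Dcx*, *Map2*, *Stmn2* and *Gap43*, with a list median of -0.35, while *Nes*, *Emx1*, *Lhx2* and *Prom1* rose and *Fabp7* fell. Calls there were 46.2% of the projection neuron and 41.7% of the apical progenitor genes tested, beside 15.0% of all genes. Against ctrl, all 13 projection neuron genes were below 0 in dKO-E (median -0.29). *Map2* alone passed 0.001, or 7.69% of the list beside 2.58% of all genes.

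**Figure D4:**
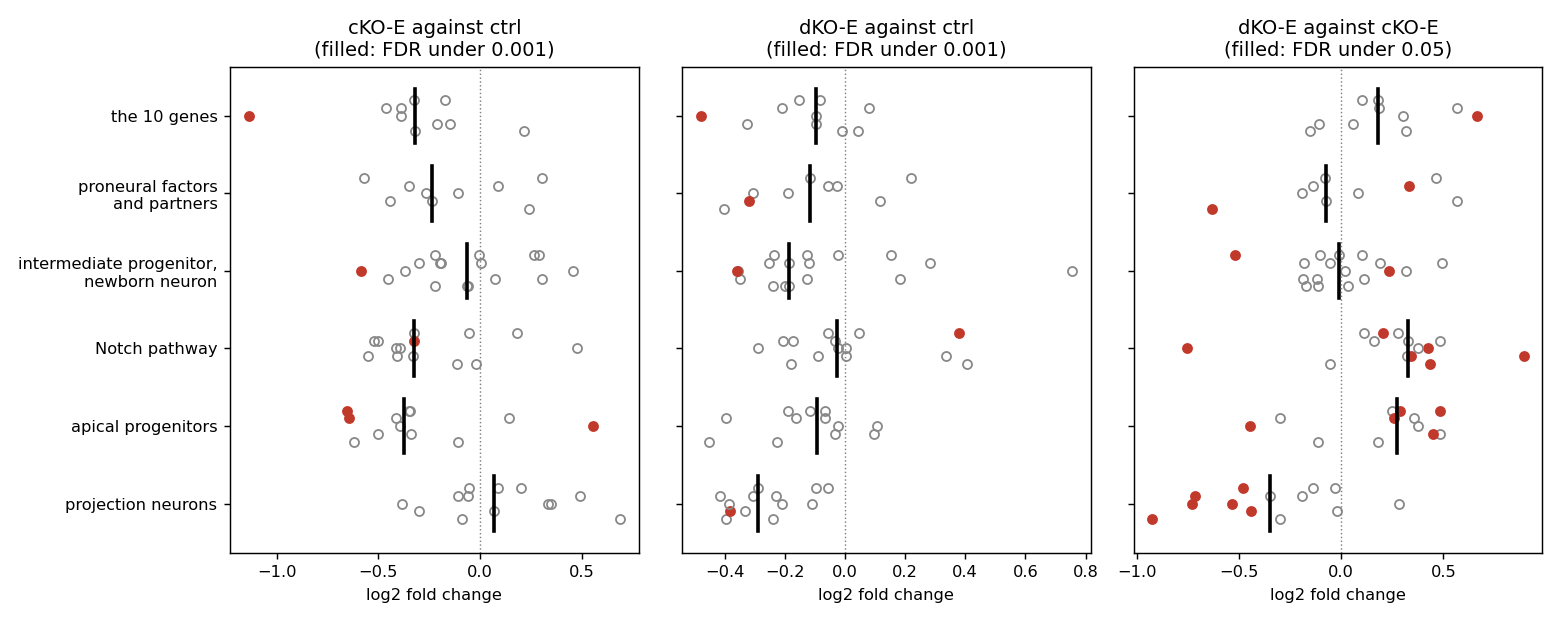
Log2 fold changes of the tested genes of 6 lists in the 3 comparisons, 1 point per gene, filled red where the gene passed the FDR of that panel and open grey otherwise, with a black bar at the list median. The bar of the 10 genes stands at -0.32, -0.10 and 0.18, that of the Notch list at -0.33, -0.03 and 0.33, and that of the projection neuron list at 0.07, -0.29 and -0.35.

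Markers of other cells moved in cKO-E as well. Calls there stand beside 3.38% of all genes, which passed the FDR of 0.001 in either direction. The summed level of 10 microglial markers was 8.35 to 19.0 CPM in ctrl, 35.0 to 44.9 in cKO-E and 8.10 to 11.7 in dKO-E, and 3 of the 4 tested in cKO-E rose (*Csf1r*, *Mpeg1* and *Dock2*, by 1.53 to 2.499 on the log2 scale). Of 7 Cajal-Retzius neuron markers, summed at 560.0 to 736 CPM in ctrl, 906 to 1019 in cKO-E and 499.6 to 689 in dKO-E, 3 of the 6 tested rose in cKO-E (*Reln*, *Trp73* and *Ebf3*, by 0.62 to 0.96). The 12 interneuron and ganglionic eminence markers summed to 62.4 to 147 CPM in ctrl, 117 to 173 in cKO-E and 84.4 to 124 in dKO-E. None of 6 was called in cKO-E at 0.001, and 5 (83.3%) had an unadjusted p under 0.05, beside 29.8% of all genes. For 6 endothelial markers the sums were 38.4 to 73.2 CPM (ctrl), 49.1 to 68.5 (cKO-E) and 37.5 to 91.0 (dKO-E), and for 7 blood markers 43.6 to 115, 53.2 to 81.9 and 30.3 to 109.8 CPM, all overlapping. None of the microglial, Cajal-Retzius, endothelial or blood markers was at 0 in all embryos of a group. From cKO-E to dKO-E, *Mpeg1*, *Dock2* and *Cx3cr1*, *Reln*, *Trp73*, *Ebf3* and *Ndnf*, the interneuron genes *Dlx1*, *Gad1*, *Gad2* and *Lhx6*, and the hem gene *Lmx1a* fell at the FDR of 0.05. That threshold was passed by 15.0% of all genes in either direction. The part of these cells in the levels of the 10 genes was not tested.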

How the data were processed

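Per the labels and the study's methods, total RNA of dissected E13.5 cortex was depleted of ribosomal RNA and made into Click-seq libraries with a molecular tag. The authors trimmed reads with cutadapt 1.13, aligned them with STAR 2.5.2a, removed duplicates with UMI-tools 0.5.3 and counted them per gene with HTSeq 0.6.1p1, and the submitters' notes name mm10. The values they deposited are whole-number counts without normalization. The feature type and strand setting of counting are not given in the sources used here; genes nested in another gene on the same strand were nearly all at 0, as counting over whole gene spans with strand would give. Rows that name no gene (4.96 to 12.5% of a library without a feature, among others) were left out.

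Symbols and positions came from GENCODE M21 on GRCm38, where 51633 of 51912 identifiers were found without version. Embryos were grouped by genotype as labelled. Each comparison had its own fit without covariates in edgeR 4.0.16 (R 4.3.3): filterByExpr at a minimum count of 10, TMM factors, the quasi-likelihood test and Benjamini-Hochberg adjustment over all genes tested. Calls used an FDR of 0.001 against ctrl and 0.05 between mutants. The SE is the size of the log2 fold change divided by the square root of the F statistic. CPM used TMM factors over all 19 libraries, and a count of 3 corresponded to 0.379 to 3.54 CPM. Separate litters and embryos are labelled, and no 2 libraries of a group agreed within sampling noise (chi-square per degree of freedom of 1.40 to 10.3).

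Named genes were the 10 members, called genes of the lists, the targeted genes, abundant uncalled list genes, and the 3 genes nearest in pattern to *Eomes* and *Rhbdl3*. The members and lists were chosen with earlier results of these data known. Alternatives covered other tests (likelihood ratio, DESeq2 1.42.0), scalings, filters, covariates, batches and thresholds and each embryo left out, with 3 more chosen after seeing the data. Scripts were tested on simulated data, and plots used Python 3.11.15 with matplotlib 3.10.9. Intervals cover counting error only.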

Additional observations from a re-analysis of the deposited data

Results flagged for a closer look

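Of 30 sets of values (10 genes in 3 groups) examined for a library standing apart by Dixon's criterion, 2 were picked out, where chance gives about 5% of sets. *Eomes* in cKO-E E read 183.6 CPM, and the gap to the nearest other cKO-E embryo at 149 CPM was 0.719 of the range of the group, against a critical value of 0.71 for 5 embryos. *Mfng* in ctrl D read 42.4 CPM, with a gap to the next ctrl embryo at 50.1 CPM of 0.624 of the range, also above the critical value. Without cKO-E E the log2 fold change of *Eomes* in cKO-E against ctrl was -0.41 in place of -0.32.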

How the results depend on the processing

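Over 1001 pairs of a result and an alternative, 909 were labelled the same. For a called value that meant the same direction and side of the threshold, and for an uncalled one a shift smaller than the spread. For a count of calls it meant an equal number or one of similar size. A turn of sign was asked only of called values, which among the 10 genes were those of *Rhbdl3* alone. Its sign held in the 26 alternatives for cKO-E against ctrl, the 30 for dKO-E against ctrl and the 27 between mutants. Member values past no threshold, such as *Neurod4*, did change sign. The number of the 10 genes lower in cKO-E (1) became 2 with the likelihood-ratio test, in sequencing batch 1, at an FDR of 0.01 and with the letter of the label as a replicate block, and 5 at an FDR of 0.05, while the share of all genes called (3.38%) became 7.17%, 2.22%, 8.59%, 2.92% and 17.2%. These member counts in cKO-E are descriptions. The number lower in dKO-E than ctrl (1) became 2 with DESeq2 and at FDRs of 0.01 and 0.05, and 0 with total counts, litter as a covariate, the replicate block, either sequencing batch, dKO-E litter 1 alone and without the 3 shallow libraries, fits that called 0.127 to 1.74% of all genes in place of 2.58% (4.8% with DESeq2, 6.85% and 15.5% at the looser FDRs). In these fits with 0 *Rhbdl3* stayed between -0.50 and -0.39. The number higher in dKO-E than cKO-E (1) became 3 with total counts, in batch 1 and with dKO-E litter 1 alone, and 2 with looser filtering or sex as a covariate, while the share of all genes (15.0%) ran from 8.05 to 20.8% in these fits. With each embryo left out, these numbers ran over 1 to 1, 0 to 1 (0 without dKO-E E or G) and 1 to 2 (2 without cKO-E B).

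The number of other neurogenic genes called in cKO-E (2) became 4 with the likelihood-ratio test and the replicate block, 6 with DESeq2 and with batch as a covariate, 1 with total counts or litter as a covariate, 0 in batch 2, 7 at an FDR of 0.01 and 15 at 0.05 (1 to 2 with an embryo left out). In the same order, the share of all genes called (3.38%) became 7.17%, 2.92%, 6.16%, 5.65%, 3.07%, 1.7%, 0.273%, 8.59% and 17.2%. In dKO-E against ctrl (3) this number became 1 with total counts, in batch 1 and without the shallow libraries, 0 with litter, the replicate block, batch 2 and dKO-E litter 1 alone, and 11 at an FDR of 0.05 (2 to 3). The share of all genes there (2.58%) became 1.74%, 0.72%, 1.5%, 0.325%, 0.325%, 0.127%, 0.477% and 15.5%. Between mutants the number (10) became 16 with sex as a covariate, 0 in batch 2, 6 at an FDR of 0.01 and 2 at 0.001 (8 to 12). The share of all genes there (15.0%) became 20.8%, 2.82%, 7.56% and 3.13%. The causes were not tested. Fits of single batches and litters also held fewer embryos. Same-lettered embryos did not deviate together throughout (correlations from -0.40 to 0.16), so that letters do not pair them, and litter could not be fitted between the mutants. The depth of the smallest libraries limits *Neurog1* and *Neurod4*.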

Other observations

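Paralogs of the 10 genes were followed in a list of 18, of which 10 were tested in each comparison. None was called by edgeR's quasi-likelihood test at an FDR of 0.001 in cKO-E or in dKO-E against ctrl, with medians of -0.08 and -0.07. In each, 3 (30%) had an unadjusted p under 0.05, beside 29.8% and 29.6% of all genes. *Btg1*, an antiproliferative relative of *Btg2*, was the lowest in cKO-E at -0.58 (SE 0.11, adjusted p = 0.00177) and rose by 0.55 from cKO-E to dKO-E (SE 0.11, adjusted p = 0.00187). For *Btg1* every cKO-E embryo was below every ctrl embryo, as for 5.49% of all genes. *Tbr1*, the T-box gene of early neurons, was the other call between the mutants. Calls there were 20% of the paralogs tested, beside 15.0% of all genes. *Neurog3* and *Rhbdl1* were listed at 0 in every library, as was *Neurod1*, which overlaps another gene on its strand.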
